A study of Dicentrarchus labrax with 23 samples.

Results

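The ubiquitin ligases, deubiquitinases and related proteins described here are 64 of the 14147 genes with a probe on a custom European sea bass microarray. They were taken by name. A gene belongs to the set if its name in the study's table of called genes contains ubiquitin, RING finger, RNF with a number, tripartite motif, F-box, cullin or kelch-like protein, and no cullin was found. The names are those of the best match in other species, and that table names 3652 of the probes, all of them genes that the study had called different between the anterior and middle intestine as 1 group (AI-MI) and the posterior intestine (PI). The other 10495 probes carry no name here, so the 64 genes are not all genes of the ubiquitin system on the array. Because the choice rests on AI-MI vs. PI in these same arrays, that contrast is described here without a test, and AI vs. MI is the comparison that is tested. The set holds 27 RING-type ligases, 8 tripartite motif proteins, 7 F-box proteins, 5 deubiquitinases and 4 proteins of conjugation or ubiquitin-like modification. It also holds 3 HECT-type ligases, 3 kelch-like proteins, 2 polycomb RING finger proteins and 2 ubiquitin precursors. The other 3 proteins are named for a ubiquitin domain or a ubiquitin-associated domain.

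Of the 23 arrays, 8 were AI, 7 MI and 8 PI, and each received Cy3-labelled RNA from 1 segment of 1 fish. The fish were untreated European sea bass of Mediterranean origin in summer growth, kept on a commercial feed and fasted overnight. No age, sex or named strain is given for them. AI began behind the pyloric caeca, MI came from mid-length and PI held the rectum. Whole segments were frozen, so each sample mixes epithelium, muscle, blood and immune cells, and the sources used here do not say whether segments with equal replicate numbers came from the same fish.

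Ubiquitin is a small protein that cells attach to other proteins. An activating enzyme (E1) charges it, a conjugating enzyme (E2) carries it, and a ligase (E3) chooses the protein that receives it. RING ligases bring E2 and target together, HECT ligases take the ubiquitin over before they pass it on, and F-box and kelch-like proteins are the target-binding parts of ligases built on cullins. Chains of ubiquitin send proteins to the proteasome or, in other forms, to endosomes and into signalling, and deubiquitinases take ubiquitin off again. In the intestinal epithelium these enzymes are known for setting the amount of transporters at the cell surface, for the control of Notch and Wnt signals and for signalling in inflammation.

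Levels are given as the log2 of the processed spot signal minus the 75th percentile of the same array, so that 0 is the 75th percentile and 1 unit is a 2-fold difference. That percentile was 388 to 1183 intensity units on the 23 arrays (median 642), 82.7 to 93.0% of probes were well above background, and no probe spot was saturated. Probe brightness differs between probes, so a level is set only against levels of the same probe. Of the 64 genes, 62 were well above background on at least 7 arrays and were tested. The other 2 were polycomb group RING finger protein 5 (L3_73486), above background on 1 AI array alone, and tripartite motif-containing protein 55 (L3_79475), above background on 1 MI array alone, and no fold is given for them. Defining enterocyte genes, among them villin-1 and intestinal fatty acid-binding protein, were above background on every array for 6 of 6 probes. All segments were present on each of the 3 slides.

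Of the 62 tested genes, 29 had their higher mean in AI-MI, and PI had it in 33. The difference was 2-fold or more in 26 of them, 16 higher in AI-MI and 10 in PI, while 15.1% of all 12894 tested probes differed by that much. It was 4-fold or more in 4 genes. Ubiquitin carboxyl-terminal hydrolase 3 and tripartite motif-containing protein 39-like were the 2 of these higher in AI-MI, and RING finger protein 186-like and RNF115 the 2 higher in PI. The median absolute difference was 0.92 for the 62 genes, 1.03 for the 3534 tested genes with a name and 0.34 for all tested probes. The arrays of AI-MI and PI did not overlap in 20 genes (9 higher in AI-MI, 11 in PI). Over all probes this was so in 8.36%, 4.03% with the higher level in AI-MI and 4.34% in PI. In all, 44.1% of the probes were called by limma for this contrast, and nothing about the 62 genes is read from these shares since they were chosen by it. The smallest difference in the set was -0.58, in RING finger protein 175 (L1_54963), followed by -0.60 in ubiquitin-like protein 5 (L3_39325). The study called more genes than its table names, so the probes without a name include called genes. The folds seen in that table begin near this size. The smallest difference may therefore reflect a lower limit on fold in the table, and it is not read as a result. Genes without a name cannot be set beside the 62. In whole segments a higher share of a cell type and more RNA per cell cannot be told apart. All 62 differences kept their direction within each of the 3 slides, which the choice of the genes by this contrast favours. Their sizes were less steady, and 7 genes moved by more than the spread between arrays within slide 1 and 9 within slide 3. Putative ubiquitin carboxyl-terminal hydrolase 50 and RING finger protein 113A were both at -0.07 within slide 3. Kelch-like protein 4 was at 0.06 within slide 1.

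**Figure D1:**
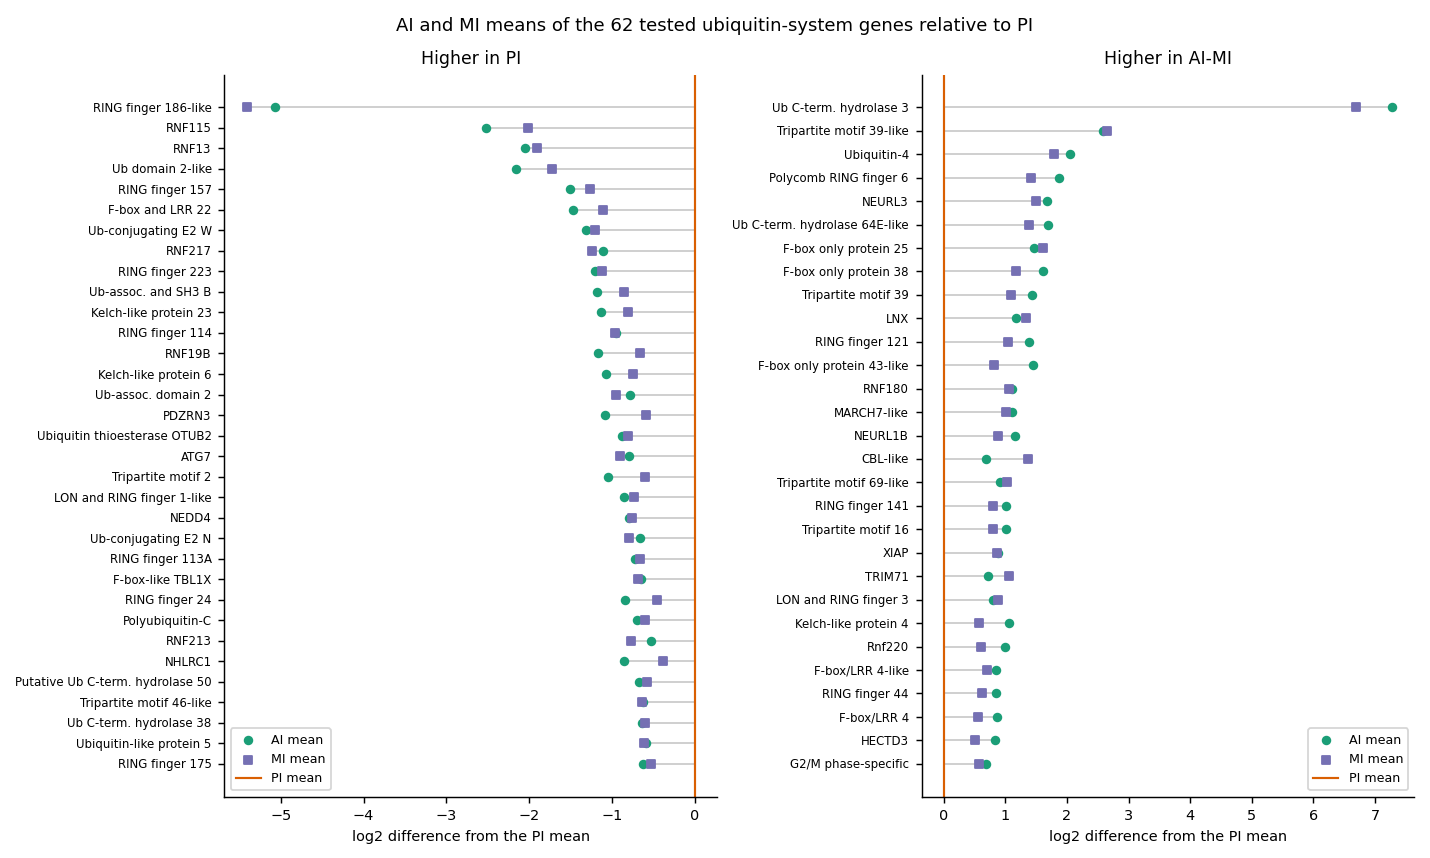
Mean log2 level of AI (circles) and MI (squares) minus the PI mean (vertical line) for the 62 tested genes, ordered by the difference between AI-MI and PI, with the 33 genes higher in PI on the left and the 29 higher in AI-MI on the right. The AI and MI means of each gene lie on the same side of the PI mean, and ubiquitin carboxyl-terminal hydrolase 3 and RING finger protein 186-like lie farthest from it.

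Among the 5 deubiquitinases, 2 had the higher level in AI-MI and 3 in PI. Ubiquitin carboxyl-terminal hydrolase 3 (USP3, L12_85864), which in human cells removes ubiquitin from histones, lay between 0.59 and 4.86 on the AI arrays (median 4.38), between 1.52 and 4.38 on the MI arrays (median 3.79) and between -4.03 and -3.02 on the PI arrays (median -3.39). Every AI and MI array lay above every PI array by a wide gap, but within AI-MI the array of AI replicate 2 (0.59) and those of MI replicates 3 (1.52) and 6 (1.95) were far below the others, which were 3.17 or more. The mean was 155-fold higher in AI than in PI and 103-fold higher in MI. Ubiquitin carboxyl-terminal hydrolase 64E-like (L3_81496), which carries the name of a Drosophila deubiquitinase, lay at a median of -2.91 over the AI arrays (-3.54 to -1.82), -2.96 over the MI arrays (-3.95 to -2.67) and -4.44 over the PI arrays (-5.56 to -3.67). Its groups overlapped because MI replicate 6 (-3.95) lay below PI replicates 3 (-3.67) and 8 (-3.92). The mean difference was 1.54, or 2.92-fold. On the other side, ubiquitin thioesterase OTUB2 (L3_77256), of the ovarian tumour family of deubiquitinases, averaged -0.56 ± 0.16 (SD, n = 15) over the AI-MI arrays and 0.28 ± 0.32 (SD, n = 8) over PI, without overlap. Putative ubiquitin carboxyl-terminal hydrolase 50 (L12_85498) differed by -0.63 and ubiquitin carboxyl-terminal hydrolase 38 (L2_52490) by -0.62, both with overlapping arrays. The median of the 5 was -0.62. It is the value of ubiquitin carboxyl-terminal hydrolase 38, whose difference was 0.06 with another background correction and an added offset (normexp).

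The RING-type ligases were split, 12 of them being higher in AI-MI against 15 in PI. In 10 of the 27 the arrays of AI-MI and PI did not overlap, as in 8.36% of all probes. The genes were chosen by this contrast, so the count is not read as a trait of these ligases. RING finger protein 186-like (L12_78334) is named after a ligase of the colon epithelium that human genetics has tied to ulcerative colitis. Its log2 signals ran between -1.43 and 1.73 on the AI arrays (median -0.28), between -1.96 and 2.28 on the MI arrays (median -1.36) and between 3.68 and 5.90 on the PI arrays (median 4.64). The highest values below PI belonged to AI replicate 2 (1.73) and MI replicate 2 (2.28), and both stayed under the lowest PI array. The PI mean exceeded that of AI 33.6-fold and that of MI 42.6-fold. RNF115 (L12_79802), a cytosolic ligase with a role in receptor traffic, lay at a median of -2.38 over the AI arrays (-3.16 to -0.69), -1.71 over the MI arrays (-2.67 to -0.89) and 0.09 over the PI arrays (-0.58 to 1.21). The gap between the groups was narrow here, since AI replicate 2 (-0.69) came close to PI replicate 6 (-0.58). The mean was 5.74-fold higher in PI than in AI and 4.03-fold higher than in MI.

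RNF13 (L12_30635), a membrane-bound ligase of endosomes and lysosomes, lay between -2.53 and -1.65 on the AI arrays (median -1.97), between -2.17 and -1.37 on the MI arrays (median -1.86) and between -0.73 and 0.50 on the PI arrays (median 0.08). All 8 PI arrays lay above the other 15, and the spread was small in AI and MI (SD 0.29 in both). The difference from PI was -2.05 in AI and -1.91 in MI. RING finger protein 157 (L2_38678) lay at a median of -2.20 over the AI arrays (-3.20 to -1.18), -1.92 over the MI arrays (-2.43 to -1.59) and -0.75 over the PI arrays (-0.92 to -0.33). Again no array overlapped, and AI replicate 2 (-1.18) was the one nearest to PI. RNF217 (L12_84302), a ligase of the RING-between-RING type, also stood apart without overlap, with 0.46 ± 0.22 (SD, n = 15) over the AI-MI arrays and 1.63 ± 0.20 (SD, n = 8) over PI.

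The other 10 RING-type ligases higher in PI differed by -1.17 to -0.58 and had overlapping arrays. RING finger protein 223 (L12_88492) was -1.17, with 1 AI array far below the rest. RING finger protein 114 (L12_88658) differed by -0.95 and RNF19B (L1_70811), known from the lytic granules of human natural killer cells, by -0.93. PDZRN3 (L1_56799), which in mouse acts at the neuromuscular synapse, differed by -0.85, and LON peptidase N-terminal domain and RING finger protein 1-like (L1_51682) by -0.80. RING finger protein 113A (L12_90183), a part of the spliceosome with a RING domain, differed by -0.69, RING finger protein 24 (L12_76290) by -0.66, and RNF213 (L12_81715), a very large ligase with ATPase modules, by -0.64. NHLRC1 (L2_64371), also called malin, which acts on enzymes of glycogen metabolism, differed by -0.64 as well. Together with RING finger protein 175, these genes are all under 2-fold except RING finger protein 223.

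The 12 RING-type ligases higher in AI-MI had differences of 0.74 to 1.59. NEURL3 (L12_86672), of the neuralized family of ligases known from Notch signalling, led them with log2 signals between 3.24 and 4.26 on the AI arrays (median 3.82), between 3.43 and 3.86 on the MI arrays (median 3.63) and between 1.32 and 2.62 on the PI arrays (median 2.27). The groups did not overlap, and the nearest arrays were AI replicate 2 (3.24) and PI replicate 7 (2.62). Its relative NEURL1B (L3_78759), which promotes uptake of Notch ligands in mouse, differed by 1.03, with overlap and with PI signals above background on 5 of 8 arrays. LNX (L1_46297), the ligase of the Notch inhibitor Numb, averaged -2.47 ± 0.37 (SD, n = 15) over the AI-MI arrays and -3.72 ± 0.32 (SD, n = 8) over PI. RING finger protein 121 (L12_88593), a membrane protein of the secretory pathway, had 2.51 ± 0.41 (SD, n = 15) and 1.28 ± 0.27 (SD, n = 8). MARCH7-like (L2_32330), of the membrane-associated RING family, had 2.03 ± 0.29 (SD, n = 15) and 0.97 ± 0.19 (SD, n = 8). XIAP (L12_82472), the inhibitor of caspases, differed by 0.88. None of the last 4 overlapped between AI-MI and PI. The remaining ones were RNF180 (L2_66809, 1.08), CBL-like (L1_4680, with means of 3.69 in AI-MI and 2.69 in PI), RING finger protein 141 (L3_78338, 0.91), LON peptidase N-terminal domain and RING finger protein 3 (L12_85369, 0.83), Rnf220 (L12_81902, 0.81) and RING finger protein 44 (L3_76739, 0.74). CBL-like is related to the ligase that sends activated growth factor receptors to lysosomes, and its probe had the widest spread of these 6 in PI (SD 0.66).

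**Figure D2:**
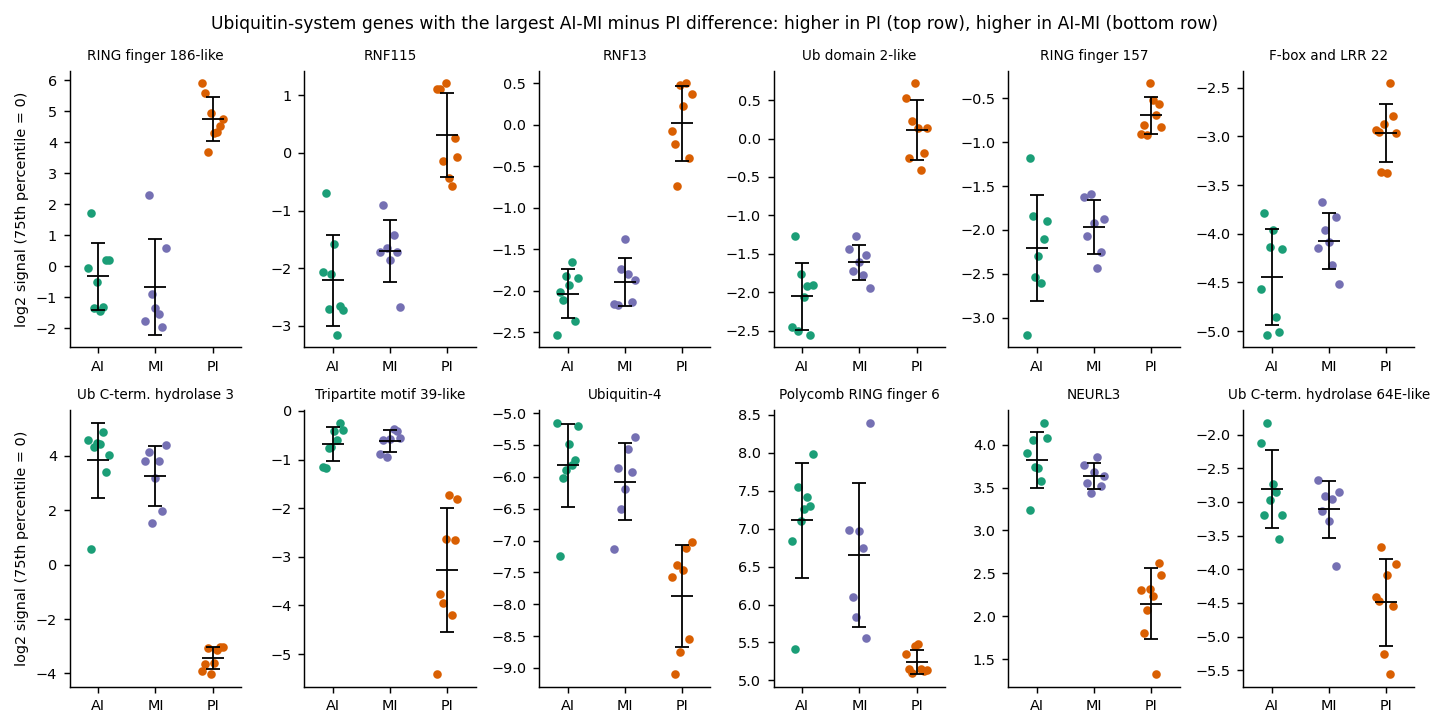
Log2 signal (0 is the 75th percentile of the array) of every AI, MI and PI array for the 12 genes with the greatest difference between AI-MI and PI, 6 higher in PI (upper row) and 6 higher in AI-MI (lower row), with the mean and SD of each segment as bars and a separate scale in each panel. AI replicate 2 is the lowest AI point of ubiquitin carboxyl-terminal hydrolase 3 (0.59), polycomb RING finger 6 (5.42) and ubiquitin-4 (-7.24).

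Of the 7 F-box proteins, 5 had more signal in AI-MI and 2 in PI. F-box and leucine-rich protein 22 (L12_81387), which in mouse and zebrafish is a muscle protein that binds at the sarcomere, lay at a median of -4.36 over the AI arrays (-5.04 to -3.79), -4.08 over the MI arrays (-4.52 to -3.68) and -2.94 over the PI arrays (-3.38 to -2.46). The PI arrays lay above all others. TBL1X (L12_88391), an F-box-like protein of the nuclear corepressor complex, was also higher in PI without overlap, by -0.67 as AI-MI minus PI. F-box only protein 38 (L12_87406), a cofactor of a Krüppel-like transcription factor in mouse, averaged -0.58 ± 0.51 (SD, n = 15) over the AI-MI arrays and -1.98 ± 0.19 (SD, n = 8) over PI, without overlap. F-box only protein 25 (L12_85641) had the greatest mean difference of the group (1.53), but its SD of 1.25 in AI and 0.84 in MI left the groups overlapping, and the difference was 0.63 within slide 1, 2.13 within slide 2 and 2.06 within slide 3. F-box only protein 43-like (L2_42852), named after an inhibitor of the anaphase-promoting complex in egg cells, differed by 1.15. The near-equal names F-box/LRR-repeat protein 4 (L12_45478) and F-box/LRR-repeat protein 4-like (L1_68866) stand for mitochondria-linked proteins, and their probes differed alike in direction, by 0.72 and 0.78, both with overlap.

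Of the 7 tested tripartite motif proteins, a family mostly of RING ligases with a B-box and a coiled coil, 5 had the higher mean in AI-MI and 2 in PI. Tripartite motif-containing protein 39-like (L1_54522) lay between -1.17 and -0.24 on the AI arrays (median -0.67), between -0.96 and -0.37 on the MI arrays (median -0.58) and between -5.41 and -1.73 on the PI arrays (median -3.21). The AI and MI arrays lay close together and all above PI, whereas the PI arrays were spread widely, from PI replicate 1 at the bottom to PI replicates 5 (-1.73) and 8 (-1.81) at the top. Its SD was 0.34 in AI, 0.22 in MI and 1.28 in PI, and the difference was 3.67 within slide 1, 2.23 within slide 2 and 2.49 within slide 3. The probe named tripartite motif-containing protein 39 (L12_83294), after a ligase that acts in the cell cycle and cell death in human, differed by 1.28, and here PI (SD 0.50) was no more spread than MI (SD 0.55). TRIM71 (L12_30082), also known as LIN41, a RNA-binding regulator of stem cells, averaged 3.22 ± 0.32 (SD, n = 15) over the AI-MI arrays and 2.35 ± 0.22 (SD, n = 8) over PI, without overlap. Tripartite motif-containing proteins 69-like (L12_81988, 0.96) and 16 (L12_85008, 0.91) were higher in AI-MI with overlap. Tripartite motif-containing protein 2 (L12_88360, -0.84), a ligase of neurons in mouse, and 46-like (L1_56505, -0.63), named after a protein of axon microtubules, were higher in PI with overlap.

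The 3 HECT-type ligases all differed by less than 2-fold. NEDD4 (L12_81207), which acts on membrane proteins such as ion channels, differed by -0.77, but 1 array carried much of it. PI replicate 7 had -1.78 and the other 7 PI arrays were lower, and without that array the difference was -0.48. HECTD3 (L12_85768) differed by 0.67 and the G2/M phase-specific E3 ubiquitin-protein ligase (L2_62826) by 0.63. Of the 3 kelch-like proteins, adaptors that bind targets for cullin 3, kelch-like protein 23 (L3_76379) differed by -0.98 and kelch-like protein 6 (L12_87596), known from human and mouse B cells, by -0.92, and kelch-like protein 4 (L3_77926) by 0.83. Kelch-like protein 4 was above background on only 3 of 8 PI arrays.

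Polycomb group RING finger protein 6 (L12_85500), which belongs to a complex that adds ubiquitin to histone H2A and silences genes, lay at a median of 7.28 over the AI arrays (5.42 to 7.98), 6.75 over the MI arrays (5.56 to 8.40) and 5.15 over the PI arrays (5.10 to 5.48). The PI arrays sat in a narrow band (SD 0.16) and the AI and MI arrays were spread (SD 0.76 and 0.95), with AI replicate 2 (5.42), MI replicate 6 (5.56) and MI replicate 3 (5.83) at or near the PI band. These are the same 3 arrays that were lowest for USP3, a match noticed after the values were seen. The mean was 3.65-fold higher in AI and 2.67-fold higher in MI than in PI.

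All 4 proteins of conjugation and ubiquitin-like modification were higher in PI. Ubiquitin-conjugating enzyme E2 W (L12_88906), which attaches the first ubiquitin to the start of a protein chain, differed by -1.26. Ubiquitin-conjugating enzyme E2 N (L12_37773), whose chains serve signalling more than breakdown, differed by -0.72, without overlap and with small SDs of 0.16 in AI, 0.17 in MI and 0.12 in PI. ATG7 (L12_82114), the E1-like enzyme of autophagy, differed by -0.84, and ubiquitin-like protein 5 (L3_39325), a partner of the splicing machinery, by -0.60. The 3 proteins named for a ubiquitin domain or a ubiquitin-associated domain were higher in PI too. Ubiquitin domain-containing protein 2-like (L2_29161) lay between -2.56 and -1.27 on the AI arrays (median -1.99), between -1.95 and -1.26 on the MI arrays (median -1.61) and between -0.41 and 0.72 on the PI arrays (median 0.14). The PI arrays lay above all others, 4.48-fold over AI and 3.30-fold over MI in their means. Ubiquitin-associated and SH3 domain-containing protein B (L12_89778), a phosphatase that damps T cell receptor signals in mouse, averaged 3.30 ± 0.36 (SD, n = 15) over the AI-MI arrays and 4.33 ± 0.15 (SD, n = 8) over PI, without overlap. Ubiquitin-associated domain-containing protein 2 (L2_46311), of the endoplasmic reticulum membrane, differed by -0.86.

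The 2 ubiquitin precursors went opposite ways. Polyubiquitin-C (L3_73804), a stress-responsive source of ubiquitin, averaged 5.65 ± 0.25 (SD, n = 15) over the AI-MI arrays and 6.30 ± 0.38 (SD, n = 8) over PI, with overlap. Ubiquitin-4 (L3_80839) lay at a median of -5.78 over the AI arrays (-7.24 to -5.15), -5.92 over the MI arrays (-7.14 to -5.37) and -7.52 over the PI arrays (-9.10 to -7.03). It is a dim probe, well above background on 6 of 8 AI, 5 of 7 MI and 1 of 8 PI arrays. Its difference of 1.93 became 1.19 when values below the lowest signal called well above background were set to that signal.

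Some other genes of the same pathways that have a name but fall outside the rule were gathered in a list of 15. It holds adaptors and regulators of cullin ligases, enzymes of SUMO, NEDD8 and UFM1 modification, and a proteasome subunit. The list is not complete. It leaves out, among others, BTB/POZ domain-containing proteins and BRCA1-associated RING domain protein 1. In the study's table these go in both directions. Of the 14 tested genes of the list, 2 lay on the AI-MI side and 12 on the PI side, with a median of -0.80. It was -0.73 when dim signals were raised to the lowest signal called well above background. Kelch repeat and BTB domain-containing protein 11 (L12_87201) differed by -2.57 and DDB1- and CUL4-associated factor 4-like (L2_44560) by 2.02, both of them above background on every array. Kelch repeat and BTB domain-containing protein 12 (L2_65191) was above background on 7 of 8 PI arrays, 1 of 7 MI arrays and 0 of 8 AI arrays, and no size is given for its difference. COP9 signalosome complex subunit 3 (L12_87153), of the complex that removes NEDD8 from cullins, differed by -1.11 and the NEDD8-activating enzyme E1 regulatory subunit (L12_86027) by -0.68. These genes were also named because the study had called them, and the list's direction is a description of the genes picked.

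Markers of other cell types moved with the same contrast. Lymphocyte markers were higher in PI for 11 of 11 genes, with a median difference of -2.07, and their summed log2 level was 0.87 to 2.54 in AI, 1.48 to 4.29 in MI and 3.09 to 5.71 in PI. Muscle markers were higher in PI for 8 of 10 genes, with summed levels of 5.43 to 6.37, 5.77 to 6.67 and 5.91 to 6.93 in the same order. Exocrine pancreas markers were higher in AI-MI for 13 of 13, with summed levels of 6.57 to 10.7, 5.70 to 11.8 and 1.83 to 5.77, and 9 of the 13 were above background on every PI array. Red blood cell markers were higher in AI-MI for 3 of 3, with summed levels of 0.20 to 4.25, 1.72 to 5.44 and -1.10 to 2.45. The enterocyte markers listed, mostly genes of digestion, were higher in AI-MI for 6 of 6. The paper reports genes of bile acid uptake as higher in PI and places that uptake in enterocytes there. The list holds none of them, so it gives no direction for enterocytes as a whole. The markers of every list too have a name only because the study had called them. All markers of the other lists were above background on every AI and MI array, and 9 of 11 lymphocyte markers were, with 10 of 11 on every PI array. Their part in the differences of the ubiquitin-system genes was not tested.

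AI and MI were both taken as 1 group in the choice of the genes, so no contrast between them entered it directly. The choice was still not independent of that comparison. The paper had detected no differing genes between AI and MI, and it joined the segments for that reason. A gene that differs between AI and MI is also more spread within the joined group, which can keep it out of the choice. The counts for the 62 genes are read with this limit. With limma on the 8 AI and 7 MI arrays, 0 of the 62 genes were called at an adjusted p under 0.05, and 0% of all 12894 probes. At an unadjusted p under 0.05 there were 7 of the 62 genes (11.3%), 2 higher in AI and 5 in MI, against 1638 probes in all (12.7%, 6.26% higher in AI and 6.44% in MI), so the share in the set was near that of the array. The lowest adjusted p was 0.234 among the 62 genes and 0.0971 over all probes. The methods' t-test with Benjamini-Hochberg adjustment also gave 0. The count over all probes rested on single arrays. It was 588 (4.56%) without AI replicate 2, 40 (0.31%) without MI replicate 7 and 1 (0.00776%) without MI replicate 3, with 1 gene of the set, NHLRC1, in the first case and 0 in the other cases. A joint fit of the 3 segments called 49 probes (0.38%) and 0 of the 62 genes, and without AI replicate 2 it called 880 (6.82%) and 3 of the 62. Leaving out AI replicate 2 and MI replicate 7, a choice made after their values were seen, gave 1048 probes (8.13%) and 6 of the 62, a share of the set near that of the array. The median absolute difference between AI and MI was 0.20 for the 62 genes and 0.17 for all probes. It was greatest, -0.68 as AI minus MI, for CBL-like (standard error 0.35), and no gene of the 62 had AI and MI arrays without overlap, as 0.062% of all probes did. A p that misses the threshold does not show that the levels were equal.

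**Figure D3:**
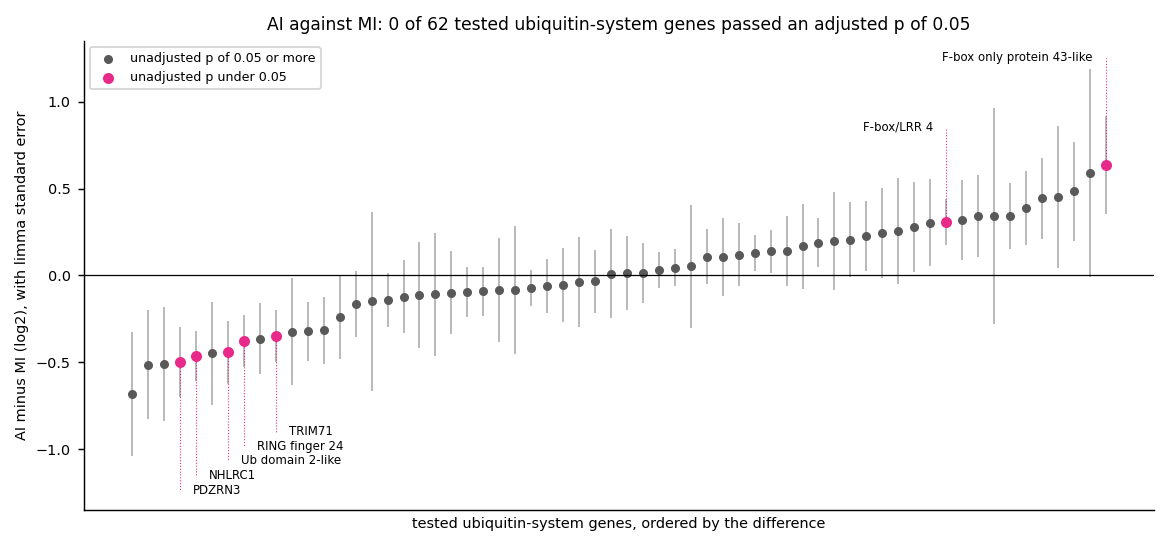
AI minus MI difference of mean log2 signal with its limma standard error for each of the 62 tested genes, ordered by the difference, with the 7 genes at an unadjusted p under 0.05 in colour and named. The differences run from -0.68 to 0.63, and no gene passed an adjusted p of 0.05.

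The genes with the smallest p on the MI side were NHLRC1, RING finger protein 24, PDZRN3 and ubiquitin domain-containing protein 2-like, all of them higher in PI than in AI-MI. NHLRC1 had -4.54 to -3.61 in AI (median -4.36) and -4.07 to -3.54 in MI (median -3.73), a difference of -0.46 (standard error 0.15, limma adjusted p = 0.234). AI replicate 2 was the only AI array among the upper MI values, and without it the difference was -0.55 and passed the test (limma adjusted p = 0.0269, where 4.56% of all probes were called). RING finger protein 24 had -0.33 to 0.68 in AI (median 0.02) and 0.22 to 0.99 in MI (median 0.39), with AI replicate 2 again the highest AI array. PDZRN3 had -4.25 to -3.07 in AI (median -4.07) and -4.14 to -2.91 in MI (median -3.43), where AI replicate 2 lay high in AI and MI replicate 7 low in MI. The differences of RING finger protein 24, PDZRN3 and ubiquitin domain-containing protein 2-like were -0.38, -0.50 and -0.44 (limma adjusted p = 0.314, 0.321 and 0.327). All 4 genes were lower in AI than in MI within each slide. The fifth gene on this side, TRIM71, differed by -0.35 (limma adjusted p = 0.337), and within slide 3 the sign turned (0.15).

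On the AI side the smallest p-values belonged to 4 genes higher in AI-MI than in PI. F-box/LRR-repeat protein 4 had -3.64 to -2.92 in AI (median -3.27) and -4.01 to -3.36 in MI (median -3.58), a difference of 0.31 (standard error 0.13, limma adjusted p = 0.343). F-box only protein 43-like had -5.97 to -4.06 in AI (median -4.96) and -6.60 to -4.79 in MI (median -5.49), a difference of 0.63 (limma adjusted p = 0.352). The AI and MI arrays of both genes overlapped. The second is a dim probe whose difference was -0.01 with another background correction and an added offset (normexp). F-box only protein 38 differed by 0.44 and Rnf220 by 0.39 (limma adjusted p = 0.453 and 0.471). Within slide 3 the former was -0.11, and the latter kept its sign in every slide.

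In the order of the means, MI lay between AI and PI for 45 of the 62 genes (72.6%), 22 of those higher in AI-MI and 23 of those higher in PI. The same order held for 67.6% of all tested genes with a name and for 50.9% of all tested probes. AI and MI entered the choice of the genes and this order, so it is a description. It held for 1 of the 4 proteins of conjugation and ubiquitin-like modification. In the related list, 4 of 14 genes were higher in MI than in AI at an unadjusted p under 0.05 and none was lower, where 6.44% of all probes were higher in MI at that level and 6.26% higher in AI. Kelch repeat and BTB domain-containing protein 12, below background on nearly all AI and MI arrays, was 1 of the 4. Muscle markers were higher in MI at that level in 4 of 10 genes, red blood cell markers in 3 of 3 and lymphocyte markers in 2 of 11, and their part in the values of MI was not tested.

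Single arrays stood apart in many of the 62 genes. AI replicate 2 was the AI array nearest to PI in 21 genes (33.9%), and MI replicate 3 was the MI array nearest to it in 23 (37.1%). Over all probes called for AI-MI vs. PI these arrays were nearest in 32.7% and 33.2%, so the shares in the set were near those of the array. PI replicate 7 was the PI array nearest to AI-MI in 16 genes (25.8%, against 24.0% of called probes). The median SD of the 62 genes was 0.48 in AI, 0.40 in MI and 0.37 in PI, and that of all tested probes 0.38, 0.34 and 0.32. Without AI replicate 2, and without PI replicates 7 and 8, all 62 genes kept their direction between AI-MI and PI. The genes were chosen by this contrast on these arrays, so a kept direction was likely beforehand and is a description.

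The size of many differences changed with normexp, which removed background in another way and added an offset of 50 intensity units. An added constant by itself moves the differences of dim probes toward 0. The separate parts of offset and background removal were not tested. When normexp was run on median spot signals, 15 genes differed by 2-fold or more in place of 26. The share of all probes at that fold was not computed with normexp, so the drop is not read as particular to these genes. The median difference over all probes went from 0.01 to 0.13. The 11 genes with a mean log2 signal below -4 kept a median of 14.2% of their difference, and the other 51 kept a median of 87.8%. Some of the latter also lost much of it, among them NHLRC1 (-0.64 to -0.13), RING finger protein 175 (-0.58 to -0.17) and PDZRN3 (-0.85 to -0.37). The sign turned in 3 dim genes. It went from -0.63 to 0.10 in tripartite motif-containing protein 46-like and from -0.62 to 0.06 in ubiquitin carboxyl-terminal hydrolase 38. In kelch-like protein 23 it went from -0.98 to 0.02. All 3 values with normexp lay below the median of 0.13 over all probes. Since the offset moves dim probes toward 0, no direction of the 3 genes is read from this. RNF213 (-0.02), ubiquitin-associated domain-containing protein 2 (-0.08) and NEDD4 (-0.11) came close to 0. Of the genes shown by array, USP3 was at 6.05 with normexp, RING finger protein 186-like at -4.98 and RNF115 at -1.89. Tripartite motif-containing protein 39-like went from 6.14-fold to 3.53-fold. Among the genes shown by array for their difference between AI-MI and PI, ubiquitin-4 lost the greatest share, from 1.93 to 0.46. F-box and leucine-rich protein 22 came next, from -1.31 to -0.53.

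**Figure D4:**
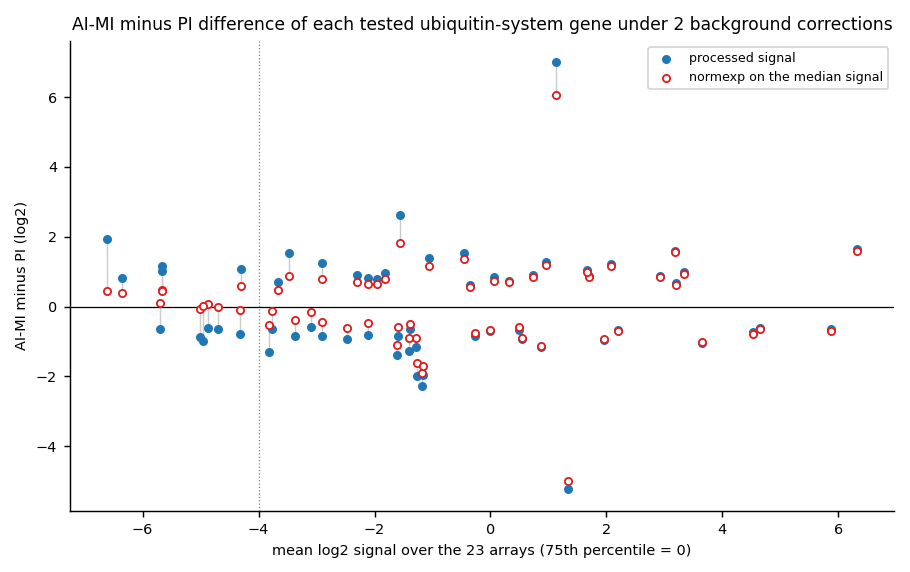
AI-MI minus PI difference (log2) of the 62 tested genes against their mean log2 signal over the 23 arrays, with the processed signal (filled) and with normexp on the median signal (open), a grey line joining both values of a gene. To the left of the dotted line at -4 the 11 dim genes moved toward 0 or past it, and the other 51 kept 21.0 to 109% of their difference. Normexp also added an offset of 50, which by itself moves dim genes toward 0.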

How the data were processed

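The authors labelled RNA of each segment with Cy3 and extracted the scanned arrays with Agilent Feature Extraction 11.5.1.1. The deposited processed signal is an intensity after background subtraction and detrending by the authors, and the median spot and local background signals are raw intensity values as deposited. The authors' deposited table on the log2 scale was used only as an alternative. Spots marked as uneven or as outliers (1 to 47 per array, median 10) were left out, the rest were averaged per probe, and log2 signals were scaled by the array's 75th percentile. An eighth MI array was not analysed here.

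A probe was tested if at least 7 of the 23 arrays had it well above background, with limma 3.58.1 in R 4.3.3 (lmFit and eBayes, two-sided), with Benjamini-Hochberg adjustment over all 12894 and a threshold of 0.05. The fit was tested on simulated data. Python 3.11.15 with numpy 2.4.6 and pandas 2.3.3 was used for summaries. Nothing in the labels names litters, tanks or days of sampling. Slides 1 and 2 were scanned on 1 date and slide 3 on another, and all segments were present on each slide. Each array is 1 segment of 1 fish, and the number of arrays limits the precision. Genes given with values by array were the 6 per direction with the greatest difference between AI-MI and PI and the 4 per direction whose p was smallest between AI and MI, and the others are given by role.

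Alternatives were quantile normalization, normexp (offset 50; on median signals, as the files hold no means), no filter, a floor on dim signals, the authors' table, the methods' t-test, a trended prior, replicate and slide blocks, fits within slides, all segments fitted jointly, and leaving out every array in turn. Removing AI replicate 2 with MI replicate 7, PI replicates 7 and 8 together, and AI replicate 2 in the joint fit were added after values were seen. The genes and lists were chosen with earlier results of these data known.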

Additional observations from a re-analysis of the deposited data

Results flagged for a closer look

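In 12 of 186 groups of values (62 genes in 3 segments), 1 array lay far from the others by Dixon's test, and chance alone gives about 1 in 20 such groups. AI replicate 2 was the outlying array in 4 genes, with 0.59 for ubiquitin carboxyl-terminal hydrolase 3, 5.42 for polycomb group RING finger protein 6, 3.82 for ubiquitin-associated and SH3 domain-containing protein B and -7.24 for ubiquitin-4. In each of these genes it was the AI array nearest to the PI mean. PI replicate 7 was outlying in 2 genes, with -1.78 for NEDD4, above the other PI arrays and on the far side from AI-MI, and 4.70 for ubiquitin-like protein 5, below them. F-box/LRR-repeat protein 4 had 1 low array in MI (replicate 3, -4.01) and 1 low array in PI (replicate 1, -4.72). The other flagged values were 4.69 for ubiquitin-conjugating enzyme E2 N on AI replicate 6, -2.96 for Rnf220 on MI replicate 1, -3.69 for RING finger protein 223 on AI replicate 3 and 0.77 for RING finger protein 114 on MI replicate 7.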

How the results depend on the processing

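Between AI and MI, the 0 probes called became 49 in the joint fit of AI, MI and PI, with 0 of the 62 genes, and 0 to 588 with 1 array left out, with 0 to 1 of the genes. The 588 came without AI replicate 2, 40 without MI replicate 7 and 1 without MI replicate 3. Without AI replicate 2 in the joint fit, 880 probes and 3 genes were called (PDZRN3, F-box only protein 43-like and NHLRC1). Without AI replicate 2 and MI replicate 7, both removed after their values were seen, 1048 probes and 6 genes were called, the same 3 with RNF115, polycomb group RING finger protein 6 and ubiquitin domain-containing protein 2-like. The cause was not tested. All other settings called 0 probes.

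Deviations from the segment means, correlated over probes, ran between 0.0059 and 0.449 for AI and MI arrays of equal number (above 0.1 in 6 of 7 pairs, with 4 AI arrays matching their own number best), between 0.189 and 0.590 for AI and PI (8 of 8, with 8) and between 0.0028 and 0.553 for MI and PI (6 of 7, with 5). This is a hint from the data, not from the design, that equal numbers go together. Most arrays of equal number also shared a slide. With slide means removed, the correlations of equal numbers ran between -0.180 and 0.295 for AI and MI. They ran between 0.020 and 0.476 for AI and PI and between -0.452 and 0.440 for MI and PI. Fish and slide were not told apart. With the replicate number as a block, 0 probes and 0 genes were called, and 13 genes in place of 7 had an unadjusted p under 0.05, as did 20.5% of all probes in place of 12.7%. Between AI-MI and PI the replicate block moved no difference of the 62 genes by more than the spread between arrays.

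Between AI-MI and PI, 15 genes differed by 2-fold or more with normexp in place of 26, against 24 to 29 with 1 array left out. The share of all probes at that fold was not computed with normexp. With quantile normalization 3 genes moved by more than the spread between arrays, all to a greater difference. They were polyubiquitin-C (-0.65 to -1.02), ubiquitin-conjugating enzyme E2 N (-0.72 to -1.03) and ubiquitin-like protein 5 (-0.60 to -0.93). The sign turned with normexp in tripartite motif-containing protein 46-like (0.10), ubiquitin carboxyl-terminal hydrolase 38 (0.061) and kelch-like protein 23 (0.016). These values lay near 0 and below the normexp median over all probes (0.13), and no direction is read from them. Over all probes, the calls were 2772 on the AI-MI side against 2912 on the PI side, and 3740 against 2129 with normexp. Of the 64 genes, 9 were not well above background on every usable array, which limits what can be said of them. The limit from dim signals is not confined to these 9. Ubiquitin carboxyl-terminal hydrolase 38, RNF213, NEDD4 and NHLRC1 were well above background on every array. With normexp their differences were 0.061, -0.02, -0.11 and -0.13. The 11 genes with a mean log2 signal below -4 kept a median of 14.2% of their difference with normexp, and the other 51 kept 87.8%. Normexp also added an offset of 50, which by itself moves the differences of dim probes toward 0. The part of the offset in these losses was not tested.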
